A study of Homo sapiens with 48 samples.

Results

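The genes described here are 8 protein kinases that act on splicing factors, namely CLK1, CLK2, CLK3, CLK4, SRPK1, SRPK2, DYRK1A and DYRK1B, together with C1orf63, the gene now called RSRP1, whose product is rich in arginine and serine. They are 9 of the 19847 genes in the deposited expression table. The kinases were taken by name from the CLK, SRPK and DYRK families, with earlier results of these data known. Not all of each family was taken: SRPK3, DYRK2, DYRK3 and DYRK4 were placed in a list of related kinases. C1orf63 was chosen by its own levels and intron retention in these libraries, so its values are described without a test.

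The cells were IMR90, a line of human lung fibroblasts, and all of them carried ER:RAS G12V, an oncogenic RAS fused to the estrogen receptor so that the drug 4-hydroxytamoxifen (4OHT) switches it on and drives the cells into senescence. Cells were kept for 6 days in 4OHT or in the solvent DMSO, transfected with siRNA and collected 2 days later in 0.5% serum. The siRNAs were non-targeting (siNT1 and siNT2), against SF3B1, a core part of the U2 snRNP (siSF3B1-13 and siSF3B1-16), or against RBM39, an SR-related splicing factor (siRBM39-06 and siRBM39-08). Each siRNA had 4 replicates per treatment, giving 48 libraries in 6 groups of 8. All groups came from 1 line, and the labels do not say that replicates were separate cultures. The published methods state in general that in vitro replicates were independent experiments, without naming these libraries. The p-values measure the spread between these samples, which by the labels alone may be technical.

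CLK and SRPK kinases phosphorylate the serines of SR proteins, which brings SR proteins into the nucleus, releases them from nuclear speckles and allows them to help the spliceosome choose splice sites. SRPKs act mainly in the cytoplasm and CLKs mainly in the nucleus, while the DYRK kinases phosphorylate splicing factors and cell cycle proteins and help set entry into quiescence. Several CLK transcripts are known for detained introns, which are kept in polyadenylated RNA that stays in the nucleus. In CLK1 and CLK4 these introns lie on both sides of the fourth exon, whose skipping shifts the frame of the kinase.

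Libraries held 31467221 to 52734636 gene counts (median 39656598). The knockdowns were seen in the targets: mean SF3B1 level was 84.7 cRPKM in DMSO siNT and 7.58 in DMSO siSF3B1 (77.0 and 6.06 in 4OHT), and mean RBM39 level was 70.7 in DMSO siNT and 11.5 in DMSO siRBM39 (49.6 and 6.54 in 4OHT). The other target was higher than in siNT. Mean RBM39 level was 123.0 in DMSO siSF3B1 and 98.0 in 4OHT siSF3B1 (log2 0.83 and 1.06 above siNT). Mean SF3B1 level was 117.1 in DMSO siRBM39 and 92.3 in 4OHT siRBM39 (log2 0.46 and 0.29 above siNT). Its part in the contrasts of the 2 knockdowns below was not tested. Here cRPKM is the authors' RPKM corrected for mappable positions, so that levels may be compared between genes. All 10 fibroblast markers reached 1 cRPKM in each group, with a summed level of 13070 to 14088 in DMSO siNT and 6097 to 6403 in 4OHT siNT. One library stood apart, replicate 4 of siRBM39-08 in 4OHT: its summed epithelial markers were 14.7 cRPKM against at most 5.17 elsewhere, and where leaving it out changed a call or a value of a kinase given here by about 1.5 times or more, both values are given.

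In DMSO siNT cells the mean levels ran from C1orf63 (22.5 cRPKM) through DYRK1B (20.5), CLK1 (17.99), SRPK2 (17.5), SRPK1 (16.1), CLK2 (15.4), CLK3 (13.1) and DYRK1A (11.6) to CLK4 (5.46). The ranges of neighbours in that order overlapped except SRPK2 above SRPK1, CLK3 above DYRK1A, and DYRK1A above CLK4. In 4OHT siNT cells SRPK1 stood first (37.2 cRPKM) and CLK1 stood next to last (8.39), with CLK4 again lowest (5.18). CLK4 was the lowest of the 9 in all 6 groups, and C1orf63 the highest in 5 of them. In DMSO siSF3B1 the 7 kinases other than CLK4 lay close together, at means from 14.5 (CLK1) to 17.2 cRPKM (SRPK2), and neighbours among them overlapped. In DMSO siRBM39 CLK1 was second, at 25.1.

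**Figure D1:**
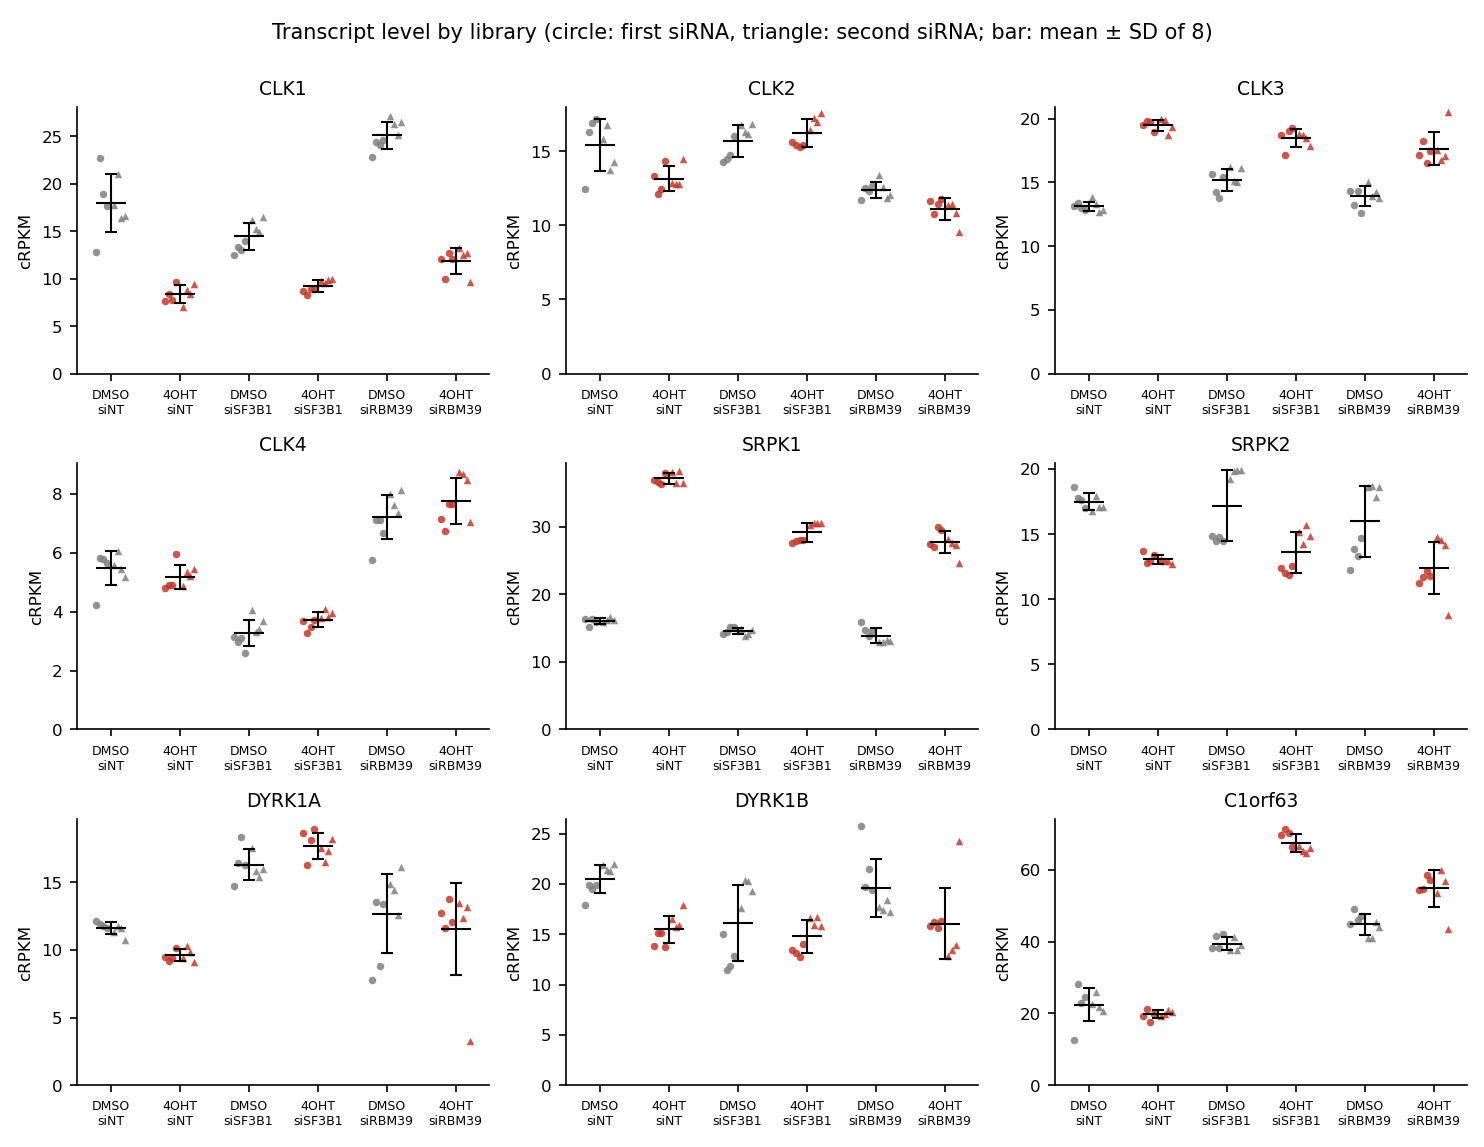
Level of each of the 9 genes (cRPKM, vertical axis) in each of the 48 libraries, by group (grey DMSO, red 4OHT; circles first siRNA, triangles second siRNA), with the mean and SD of 8 libraries. SRPK1 lies at 15.2 to 16.6 in DMSO siNT and at 36.4 to 38.2 in 4OHT siNT, CLK1 falls below its DMSO siNT range in 4OHT siNT, and C1orf63 is above its siNT ranges in all 4 knockdown groups.

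The first comparison asked what RAS activation did to these kinases, 4OHT siNT against DMSO siNT. SRPK1 and CLK3 rose, and CLK1 had the largest decrease of the 8. SRPK1, the cytoplasmic kinase that loads phosphates onto SR proteins before import, was at 15.2, 16.2 and 16.6 cRPKM (lowest, median and highest of 8) in DMSO siNT and at 36.4, 36.8 and 38.2 in 4OHT siNT. Every 4OHT library was above every DMSO library, and the counts gave a 2.32-fold level (log2 difference 1.21 ± 0.03 SE, adjusted p = 1.8e-33, edgeR quasi-likelihood test with Benjamini-Hochberg adjustment over 9991 genes, used for all gene tests below). In such bulk RNA a change in all cells and a change in the share of cells that express a gene cannot be told apart, and the fibroblast markers given above moved with 4OHT too, whose part in these differences was not tested. Of the leukocyte markers, CD68, a lysosomal protein, went from between 23.04 and 29.98 to between 45.18 and 53.18 cRPKM, while CD3E was at 0 in every siNT library and PTPRC at 0.02 or less. For CLK1, a nuclear kinase of SR proteins, the values were 12.8, 17.7 and 22.7 in DMSO and 7.02, 8.41 and 9.67 in 4OHT. The groups did not overlap, and the level in 4OHT was 0.469 of that in DMSO (log2 −1.09 ± 0.07, adjusted p = 5.1e-18).

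CLK3 went the other way from CLK1, from 12.7, 13.1 and 13.8 cRPKM in DMSO to 18.7, 19.6 and 19.9 in 4OHT. Again no library of one group reached the other (1.49-fold, adjusted p = 1.46e-16). SRPK2 was at 16.8, 17.4 and 18.6 in DMSO and at 12.7, 13.0 and 13.7 in 4OHT, without overlap, and fell by 0.42 on the log2 scale (adjusted p = 2.86e-05). DYRK1B fell by 0.40 (adjusted p = 0.00089), also without overlap. CLK2, another SR protein kinase of the nucleus, was at 12.5, 16.1 and 17.2 in DMSO and at 12.1, 12.8 and 14.5 in 4OHT, overlapping, and fell by 0.22 (adjusted p = 8.52e-05). In all, 6 of the 8 kinases passed the test, 2 upward and 4 downward, where 78.1% of all 9991 genes tested did so. The median difference of the kinases was −0.25 on the log2 scale against 0.00 for all genes. CLK4 did not pass (log2 −0.07, adjusted p = 0.37).

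DYRK1A, a kinase with a dosage role in brain development, was at 10.7, 11.7 and 12.1 cRPKM in DMSO siNT and at 9.09, 9.44 and 10.3 in 4OHT siNT. These ranges did not overlap, yet the test over all 48 libraries did not call it (log2 −0.27, adjusted p = 0.0693). Its spread in the siRBM39 libraries, which share the estimate of error, was wide. Without replicate 4 of siRBM39-08 in 4OHT the adjusted p was 0.0036, and with only the 2 siNT groups fitted it was 1.08e-07.

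**Figure D2:**
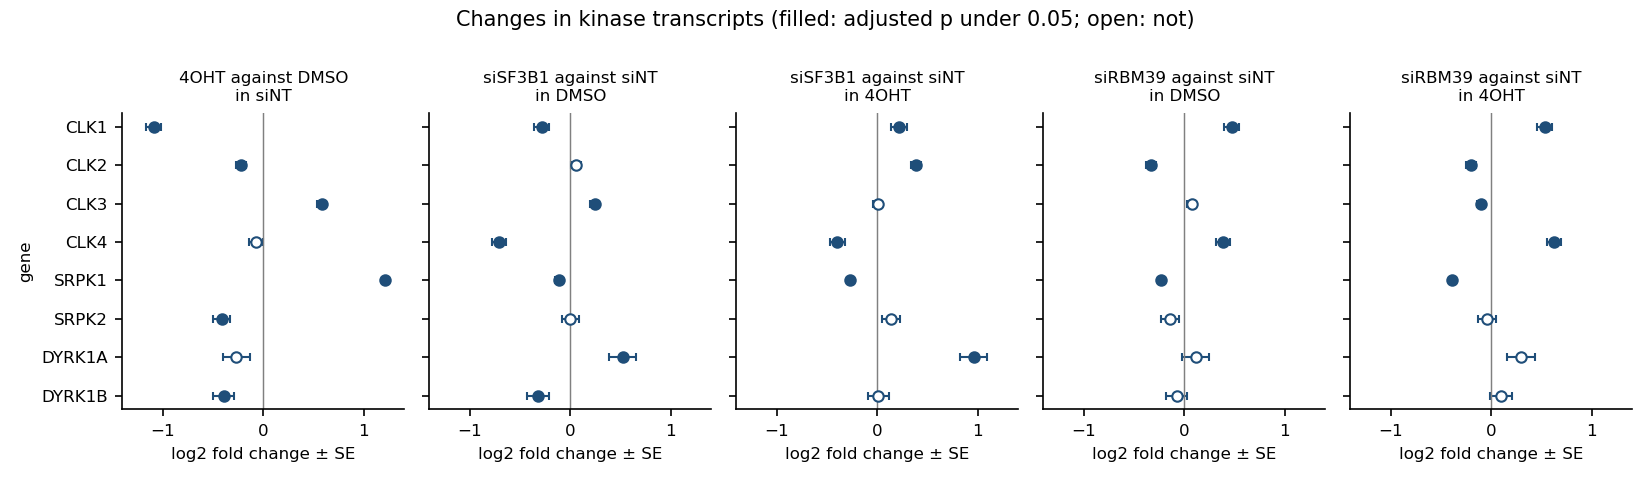
Log2 fold change (horizontal axis) with its standard error for the 8 kinases (vertical axis) in 5 comparisons, where a filled point has an adjusted p under 0.05. CLK4 lies left of 0 after siSF3B1 (−0.71 and −0.40) and right of 0 after siRBM39 (0.39 and 0.62), and SRPK1 has the rightmost point under 4OHT in siNT cells (1.21).

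Loss of SF3B1 lowered CLK4 and raised DYRK1A under both treatments. CLK4, a close relative of CLK1, was at 4.21, 5.62 and 6.06 cRPKM in DMSO siNT and at 2.59, 3.22 and 4.06 in DMSO siSF3B1. All 8 knockdown libraries lay below all 8 controls (0.613-fold, adjusted p = 5.45e-12). With 4OHT it was at 4.79, 5.06 and 5.94 in siNT and at 3.26, 3.76 and 4.08 in siSF3B1, again apart (0.759-fold, adjusted p = 3.66e-06). The decrease was larger in DMSO than in 4OHT, by a difference of 0.31 on the log2 scale (adjusted p = 0.0138 for the interaction), a call lost in 5 of 17 alternative analyses, among them siNT1 alone (0.28, adjusted p = 0.137).

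DYRK1A rose from the control values above to 14.7, 16.1 and 18.3 cRPKM in DMSO siSF3B1 and to 16.2, 17.8 and 18.9 in 4OHT siSF3B1. Neither range met its control. The change was 1.43-fold in DMSO (adjusted p = 0.000687) and 1.94-fold in 4OHT (adjusted p = 2.21e-08). A transcript annotated on the same strand overlaps DYRK1A, so reads from any exon they share could not be told apart.

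The other kinases changed less after siSF3B1. In DMSO, CLK3 rose by 0.24 on the log2 scale (adjusted p = 3.99e-06), and CLK1 fell by 0.29 (adjusted p = 0.000628), DYRK1B by 0.32 (adjusted p = 0.00669) and SRPK1 by 0.11 (adjusted p = 0.00255). These made 6 kinases called, 2 higher and 4 lower, against 72.7% of all genes. The calls of CLK1, DYRK1B and SRPK1 in DMSO were lost in 2, 2 and 1 of 17 alternatives. In 4OHT, 5 were called, 3 higher and 2 lower, against 77% of all genes: besides DYRK1A and CLK4, CLK2 rose 1.31-fold (adjusted p = 2.49e-09), CLK1 rose by 0.22 (adjusted p = 0.00894) and SRPK1 fell by 0.27 (adjusted p = 7.85e-10).

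CLK2 was at 12.1, 12.8 and 14.5 cRPKM in 4OHT siNT and at 15.3, 16.0 and 17.6 in 4OHT siSF3B1. The groups were apart, while in DMSO they overlapped (log2 0.05, adjusted p = 0.321). The difference between treatments passed the test for CLK2 (0.33, adjusted p = 0.000187) and for CLK1 (0.50, adjusted p = 0.000149). CLK3 and SRPK1 had the opposite sign of interaction, −0.24 (adjusted p = 0.00186) and −0.16 (adjusted p = 0.00757). The last was lost in 3 of 17 alternatives. The 5 kinases whose response differed with treatment compare with 37.8% of all genes. Without replicate 4 of siRBM39-08 in 4OHT there were 7, with DYRK1A (0.44, adjusted p = 0.0019) and DYRK1B (0.33, adjusted p = 0.0253) added. For CLK1 the rise in 4OHT siSF3B1 was small beside its spread: 7.02, 8.41 and 9.67 cRPKM against 8.29, 9.24 and 9.94, overlapping, and lost in 4 of 17 alternatives.

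Loss of RBM39 raised CLK1 and CLK4. CLK1 was at 22.9, 24.9 and 27.1 cRPKM in DMSO siRBM39 against the 12.8 to 22.7 of DMSO siNT. The ranges were narrowly apart (1.39-fold, adjusted p = 6.96e-07). In 4OHT, CLK1 was at 9.61, 12.3 and 13.3 against 7.02 to 9.67 in siNT, where only the extremes overlapped (1.45-fold, adjusted p = 4.95e-08).

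CLK4 was at 5.76, 7.22 and 8.11 cRPKM in DMSO siRBM39, overlapping its control range (1.31-fold, adjusted p = 1.18e-05). With 4OHT it was at 6.75, 7.65 and 8.74, above every 4OHT siNT library (1.54-fold, adjusted p = 3.23e-10). The direct contrast of the knockdowns put CLK4 lower in siSF3B1 than in siRBM39 by 1.096 on the log2 scale in DMSO and by 1.02 in 4OHT, and CLK1 lower by 0.76 and 0.32. Both genes passed that test under both treatments. In this contrast 7 kinases were called in DMSO (67.7% of all genes) and 6 in 4OHT (71.4%).

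SRPK1 fell after siRBM39, by 0.23 on the log2 scale in DMSO (adjusted p = 2.51e-07) and by 0.38 in 4OHT (adjusted p = 1.04e-13), where its range of 24.7 to 29.9 cRPKM lay below the 36.4 to 38.2 of siNT. CLK2 fell by 0.33 in DMSO (adjusted p = 3.48e-07), to 11.7, 12.4 and 13.4 cRPKM with some overlap, and fell by 0.20 in 4OHT (adjusted p = 0.000566), to 9.55, 11.4 and 11.8 with none. CLK3 fell by 0.10 in 4OHT (adjusted p = 0.0436), a call lost in 8 of 17 alternatives, and by 0.15 without replicate 4 of siRBM39-08 (adjusted p = 0.000353). This made 4 kinases called in DMSO, 2 each way, against 46.1% of all genes, and 5 in 4OHT, 2 higher and 3 lower, against 56.4%. The response to siRBM39 differed with treatment for 2 kinases, SRPK1 (−0.16, adjusted p = 0.0178) and CLK3 (−0.18, adjusted p = 0.0455), against 14.1% of all genes. These calls were lost in 4 and 7 of 17 alternatives, and without that library CLK3 was at −0.23 (adjusted p = 0.000669) and DYRK1A was called too (0.32, adjusted p = 0.0468). DYRK1A was not called in 4OHT siRBM39 (log2 0.30, adjusted p = 0.0575), and without that library it was (0.43, adjusted p = 3.12e-05).

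SRPK2, the second SR protein kinase of the cytoplasm, was called in no knockdown comparison of groups, and its siRNAs to 1 target disagreed. In DMSO siSF3B1 its 4 libraries with siSF3B1-13 were at 14.4 to 14.9 cRPKM and its 4 with siSF3B1-16 at 19.3 to 19.9, against 16.8 to 18.6 in siNT. The 2 siRNAs differed from each other by 0.37 on the log2 scale (adjusted p = 2.76e-05), on either side of the control. For RBM39 the ranges were 12.2 to 14.7 with siRBM39-06 and 17.8 to 18.7 with siRBM39-08 (0.48, adjusted p = 3.6e-07), the first below the controls and the second at their level. With 4OHT the SRPK2 splits were 0.25 between the SF3B1 siRNAs (adjusted p = 0.00483) and 0.18 between the RBM39 siRNAs (adjusted p = 0.0449), the latter 0.31 without replicate 4 of siRBM39-08 (adjusted p = 1.19e-07).

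DYRK1B was at 17.95, 20.6 and 22.01 cRPKM in DMSO siNT and at 11.4, 16.3 and 20.4 in DMSO siSF3B1, overlapping. Here too the siRNAs were apart, 11.4 to 15.1 with siSF3B1-13 and 17.6 to 20.4 with siSF3B1-16 (0.55, adjusted p = 0.000254), so that the decrease was seen with the first siRNA. In 4OHT its groups were close, at 13.7, 15.4 and 17.9 in siNT and 12.8, 14.9 and 16.7 in siSF3B1 (log2 0.01, not called). In all, the siRNAs against SF3B1 differed for 3 kinases in DMSO, SRPK2, DYRK1B and CLK4 (37.3% of all genes), and for 1 in 4OHT (27.9%). Those against RBM39 differed for 4 in DMSO, SRPK2, CLK4, SRPK1 and DYRK1A (47.6%), and for 1 in 4OHT (31.6%). Without replicate 4 of siRBM39-08 in 4OHT, which shares the estimate of error, these counts were 4 (51.6%) and 3 (42.6%) for SF3B1 and 5 (65.1%) and 3 (35.8%) for RBM39. Between siNT1 and siNT2 the lowest adjusted p of a kinase was 0.773 in DMSO and 0.9998 in 4OHT (1.63% and 0.35% of all genes called). Without that library the lowest were 0.141 and 0.181, both for DYRK1B, with 550 and 138 of 9991 genes called. DYRK1B ranges with siNT1 and siNT2 were apart, at 17.95 to 19.92 and 21.24 to 22.01 cRPKM in DMSO. In 4OHT they were 13.73 to 15.14 and 15.69 to 17.87.

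C1orf63 had the widest range of levels of the set in cRPKM. It was at 12.7, 22.9 and 28.2 cRPKM in DMSO siNT and at 17.7, 19.9 and 21.2 in 4OHT siNT. With siSF3B1 its level was 37.7, 38.6 and 42.1 in DMSO and 64.6, 66.5 and 71.3 in 4OHT. With siRBM39 its level was 40.9, 45.2 and 49.1 in DMSO and 43.5, 55.8 and 60.0 in 4OHT, where the lowest is the library that stood apart. None of the 4 knockdown groups overlapped its control, and the ratios of mean levels were 1.76 and 3.40 for siSF3B1 and 1.99 and 2.76 for siRBM39. Both siRNAs to each target gave this level, with means of 39.99 and 38.95 for siSF3B1 in DMSO and of 46.8 and 42.8 for siRBM39.

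The counting strand is not stated in the sources used here. On the opposite strand CLK2 overlaps HCN3, CLK3 overlaps EDC3, SRPK1 overlaps LHFPL5, SRPK2 overlaps KMT2E and C1orf63 overlaps RHD, and DYRK1B shares its strand with an overlapping transcript. These are overlaps of whole gene spans, introns included, and whether exons are shared was not checked. Without strand, reads from any shared exon on opposite strands could not be told apart. In GRCh37 the genes of the detained introns lie at chr2:201717732-201729414 (CLK1), chr1:155232659-155248282 (CLK2), chr15:74890841-74937755 (CLK3), chr5:178029665-178057616 (CLK4) and chr1:25568740-25664704 (C1orf63). SRPK1 lies at chr6:35800743-35889119, SRPK2 at chr7:104751151-105039755, DYRK1A at chr21:38737875-38898660 and DYRK1B at chr19:40315990-40324841.

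The splicing table gives PSI, the percentage of reads at an exon or intron that include it, and for an intron this is the share of transcripts that keep it. The table holds 91 exons and 85 introns of the 8 kinases. Of these, 30 exons and 34 introns had at least 80 reads in each group of 8 libraries, a PSI in every library and a PSI range of at least 5 points. The filter on reads was chosen after the values were seen, because most CLK introns fail the stricter score in each library. That score, with the same needs for PSI and a balance filter for introns, left 4 exons and 6 introns. Reads at the 2 ends of an intron can also be out of balance, and the number of libraries with such a flag is given for each intron. An event was called where limma on the logit of PSI gave an adjusted p under 0.05 over all exons and introns tested and the difference was at least 5 points. Introns and exons are numbered along the representative transcript, and the rule set for naming them took C1orf63 intron 3 and CLK3 intron 2. The others named below were chosen after their values were seen.

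The ends of the CLK1 and CLK4 introns that fell after siSF3B1 and of the C1orf63 intron are shown to place them, with the last 9 exon bases and first 20 intron bases at the 5′ end and the last 20 intron bases and first 9 exon bases at the 3′ end, read from the minus strand of GRCh37 5′ to 3′. Capitals mark the first and last 2 bases of the intron.
CLK1 intron 3, 5′ end (chr2:201725941-201725969): tcacatgggGTatgaacgtttttaaaaca
CLK1 intron 3, 3′ end (chr2:201724930-201724958): cgcccacttgacgtttccAGaagagtcac
CLK1 exon 4 (chr2:201724848-201724938): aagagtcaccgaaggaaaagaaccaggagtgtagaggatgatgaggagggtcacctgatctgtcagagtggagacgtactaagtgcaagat
CLK1 intron 4, 5′ end (chr2:201724828-201724856): gtgcaagatGTatagaatatttttcaaca
CLK1 intron 4, 3′ end (chr2:201724461-201724489): gatttatttctctcttttAGatgaaattg
CLK4 intron 3, 5′ end (chr5:178045537-178045565): tcacgttcgGTatgattggttttgttttc
CLK4 intron 3, 3′ end (chr5:178044427-178044455): ctgcccacttgccgttccAGaagagccac
C1orf63 intron 3, 5′ end (chr1:25571621-25571649): aagcctgaaGTaagtattctaggtttgtc
C1orf63 intron 3, 3′ end (chr1:25570116-25570144): ctttttcttaacctgtctAGctgtcggaa

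CLK1 exon 4 is 91 nt, all coding, between intron 3 of 1022 nt and intron 4 of 378 nt. CLK4 intron 3 has 1121 nt, and its ends match those of CLK1 intron 3 at 17 of 29 letters at the 5′ side and at 19 of 29 at the 3′ side. All 103 introns of the 9 representative transcripts begin with GT and end with AG. Against the 9 letters CAGGTAAGT of a consensus 5′ site, CLK1 intron 4 matched 4, CLK1 intron 3 and CLK4 intron 3 matched 5, and C1orf63 intron 3 matched 7, where the median of the 103 introns was 6. Their GC content was 26.2%, 32.6%, 31.9% and 37.4% in that order, against a median of 41.6%. CLK2 intron 4 also matched 4 letters, at a GC content of 51.7%, and 6 introns in all matched 4 or fewer. These are descriptions of the sequence and were not tested against PSI.

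CLK1 intron 3 was kept at a PSI of 44.2%, 59.2% and 77.5% (lowest, median and highest of 8) in DMSO siNT. In 4OHT siNT it was at 26.8%, 39.6% and 58.6%. The 2 control groups overlapped, and the difference of −18.2 points was not called (adjusted p = 0.124). After siSF3B1 it was at 29.4%, 39.5% and 49.0% in DMSO, low against the control with an overlap at the edges (−20.8 points ± 4.8 SE, adjusted p = 0.00227). An exact permutation test of that difference, two-sided and unadjusted among 50 such tests, gave p = 0.000466, and p = 0.00591 for the difference between the control groups. The permutation tests treat all libraries of a group as alike. In DMSO siNT the control siRNAs did not overlap at this intron, at 44.2% to 56.6% with siNT1 and 61.7% to 77.5% with siNT2. With siNT1 as the only control the difference was −11.6 points (adjusted p = 0.182), and with the second siRNA alone −19.5 points (adjusted p = 0.0536). In DMSO siRBM39 it was at 30.9%, 44.5% and 56.9% (−15.0 points, adjusted p = 0.0837, exact permutation p = 0.0087 unadjusted). Only 10 to 102 reads a library lay behind these shares, and 34 of 48 libraries were out of balance at this intron.

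CLK1 intron 4, on the other side of the exon, had mean PSI of 60.6% in DMSO siNT, 58.4% in 4OHT siNT, 40.6% and 35.4% after siSF3B1 in DMSO and 4OHT, and 49.98% and 36.5% after siRBM39. The groups overlapped in each comparison. The decrease was called in 4OHT siSF3B1 (−23.0 points, adjusted p = 0.0157) and not in DMSO siSF3B1 (−20.0 points, adjusted p = 0.0555, or 0.0332 without replicate 4 of siRBM39-08 in 4OHT). The first call was lost in 3 of 15 alternatives, with −13.9 points and adjusted p = 0.205 without replicate 1 of each siRNA. In 4OHT siRBM39 the intron fell by 21.9 points (adjusted p = 0.0427), a call lost in 11 of 15 alternatives, with −17.4 points and adjusted p = 0.16 without replicate 4 of siRBM39-08. Imbalance was flagged in 18 of 48 libraries. Exon 4 itself stayed in most transcripts, with group means of 88.8% to 96.2% and no call.

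CLK4 intron 3 was at 31.3%, 50.3% and 62.2% in DMSO siNT and at 0%, 23.1% and 40.7% in DMSO siSF3B1. The knockdown libraries were low with some overlap (−26.7 points ± 6.3 SE, adjusted p = 0.000916), a call lost in none of 14 alternatives. In these groups fewer reads lay behind the shares than at CLK1 intron 3, as given below, and the alternatives draw on the same reads. In 4OHT the values were 11.1%, 32.9% and 52.9% in siNT and 4.35%, 16.4% and 33.3% in siSF3B1 (−15.7 points, adjusted p = 0.0434), a call lost in 9 of 14. After siRBM39 the means were 31.9% and 17.4%, not called (adjusted p = 0.315 and 0.266, exact permutation p = 0.023 and 0.0115 unadjusted). Balance was flagged in 1 library. CLK4 intron 4 (395 nt), on the other side of exon 4, did not pass the filters, so no PSI is given for it. The 88-nt exon of CLK4, which could not be placed on GRCh37, had means of 78.5% to 98.7% and was not called, except between the knockdowns in 4OHT without replicate 4 of siRBM39-08 (−12.8 points, adjusted p = 0.047).

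**Figure D3:**
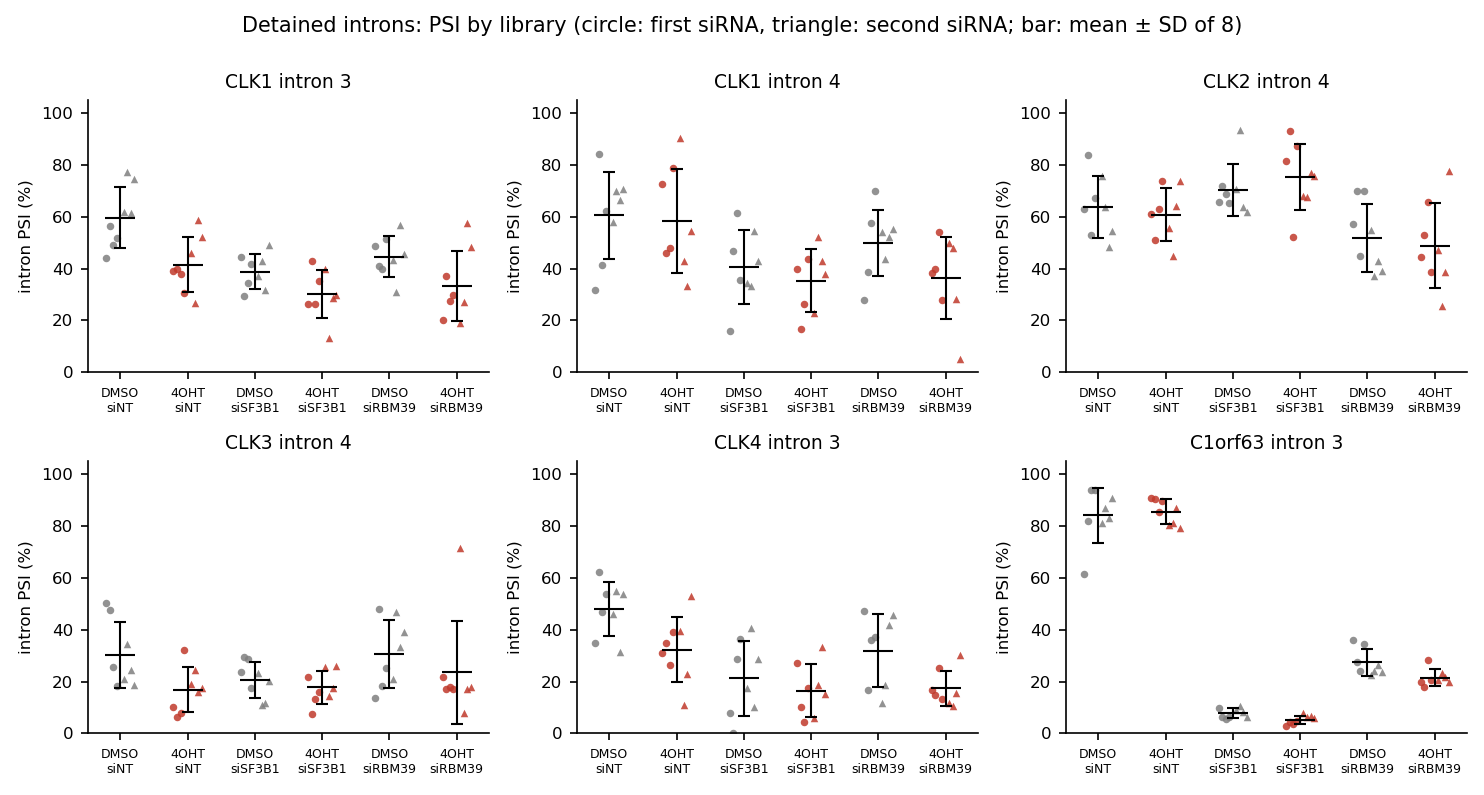
PSI (vertical axis, percent of reads that keep the intron) in each of the 48 libraries for 6 introns, by group, with the mean and SD of 8 (circles first siRNA, triangles second siRNA). CLK1 intron 3 and CLK4 intron 3 have group means of 59.7% and 47.97% in DMSO siNT and of 38.9% and 21.2% in DMSO siSF3B1, and C1orf63 intron 3 is at 61.4% or more in every siNT library and at 10.6% or less in every siSF3B1 library.

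A share can fall because fewer reads keep the intron or because more are spliced, so both were set against library size. For CLK1 intron 3, those that keep the intron came to 0.755 reads per 1000000 gene counts in DMSO siNT and 0.334 in DMSO siSF3B1, and spliced reads were 0.493 and 0.528. After siRBM39 in DMSO the kept reads were 0.725 and the spliced reads 0.877. In CLK4 intron 3 kept reads went from 0.376 to 0.0768 with siSF3B1 while spliced reads went from 0.391 to 0.262, and with siRBM39 they were 0.289 and 0.621. So CLK4, whose level fell after siSF3B1, had fewer reads of both kinds there, and both CLK1 and CLK4 had more spliced reads after siRBM39. These are sums over 8 libraries, given without a test.

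**Figure D4:**
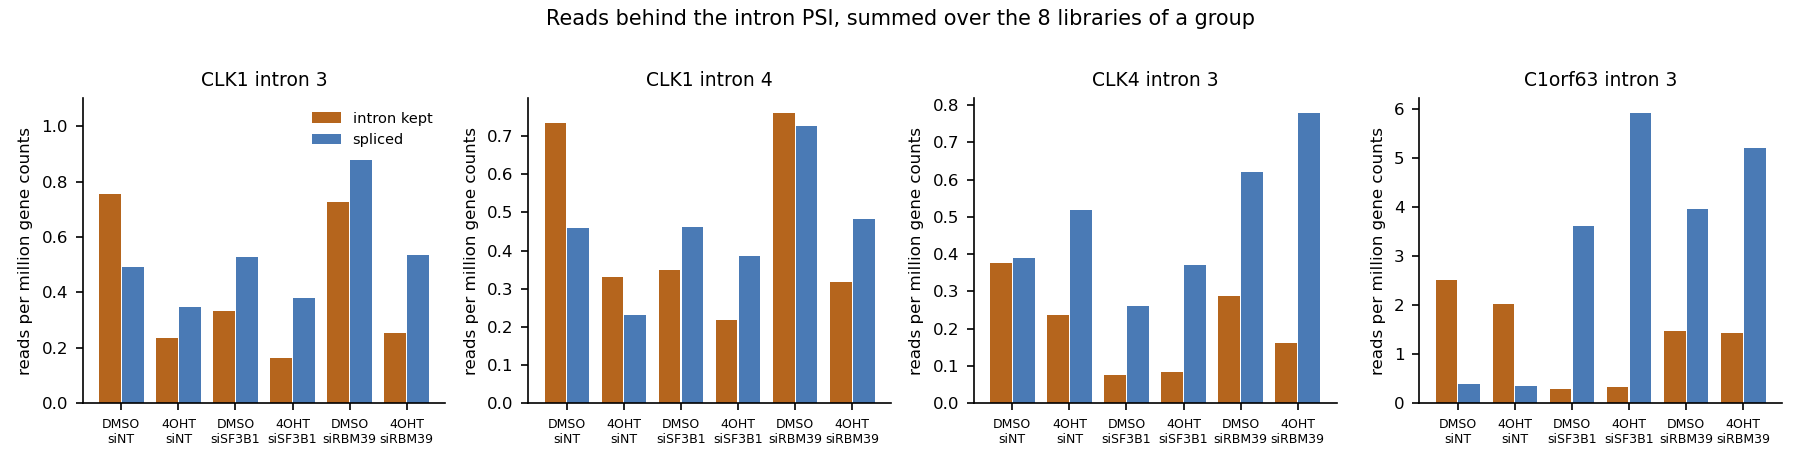
Reads per 1000000 gene counts (vertical axis) that keep the intron (brown) or are spliced across it (blue), summed over the 8 libraries of each group, for 4 introns. In C1orf63 intron 3 the kept reads are 2.52 and the spliced reads 0.402 in DMSO siNT, and 0.293 and 3.61 in DMSO siSF3B1.

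CLK2 and CLK3 also keep an intron, and no decrease of it was called. CLK2 intron 4 (348 nt, balanced in all 48 libraries) had mean PSI of 63.7% in DMSO siNT, 60.9% in 4OHT siNT, 70.3% and 75.4% after siSF3B1 and 52.0% and 48.9% after siRBM39. It rose in 4OHT siSF3B1 by 14.5 points (adjusted p = 0.0403), a call lost in 8 of 16 alternatives. The direct contrast of siSF3B1 with siRBM39 gave 18.2 points in DMSO (adjusted p = 0.032) and 26.5 points in 4OHT (adjusted p = 0.000965). The DMSO call was lost in 6 of 16 alternatives, with 7.38 points for the first siRNAs alone (adjusted p = 0.675), and the 4OHT call in 1 of 16. A second CLK2 intron, of 695 nt, had means of 57.4% to 78.0% with no call, and 37 of 48 libraries were out of balance there. CLK3 intron 4 (277 nt) had means of 16.7% to 30.6%, also with no call.

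C1orf63 intron 3 (1516 nt) was kept at 61.4%, 85.1% and 94.0% in DMSO siNT and at 79.4%, 86.3% and 90.9% in 4OHT siNT. With SF3B1 knocked down its PSI was 5.52%, 7.27% and 10.6% in DMSO and 2.88%, 5.27% and 7.69% in 4OHT. With RBM39 knocked down its PSI was 22.7%, 25.3% and 36.2% in DMSO and 17.98%, 20.6% and 28.5% in 4OHT. No knockdown library reached any siNT library, the siRBM39 libraries lay between the other groups, and no library was out of balance. On the scale used above, spliced reads were 0.402 in DMSO siNT, 3.61 and 3.96 in DMSO siSF3B1 and siRBM39, 0.353 in 4OHT siNT, and 5.92 and 5.21 in 4OHT siSF3B1 and siRBM39. The next intron, of 844 nt, was kept in 0.62% to 3.18% by group mean. A 45-nt exon had means of 19.3% and 30.6% in the siNT groups and at most 0.565% in the 4 knockdown groups, and a 44-nt exon went from 13.5% and 17% to at most 0.905%. As the gene was taken for this pattern, no test is given.

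Other introns of the kinases went up after siSF3B1, led by DYRK1B, a kinase linked to quiescence and muscle differentiation. Among the 34 introns, 10 were called in DMSO siSF3B1, 8 higher and 2 lower, where 23.3% of all introns were called and 1.04% were called lower. In 4OHT siSF3B1 15 were called, 13 higher and 2 lower, against 28.2% called and 0.855% called lower. The lower introns were CLK1 intron 3 and CLK4 intron 3 in DMSO, and CLK1 intron 4 and CLK4 intron 3 in 4OHT. The higher ones in 4OHT were 5 of CLK1, 4 of DYRK1B, 3 of CLK3 and 1 of CLK2, with none of CLK4, SRPK1, SRPK2 or DYRK1A. Among the 30 exons, 3 were called in DMSO (1 higher, 2 lower) and 4 in 4OHT (2 higher, 2 lower), against 22.1% and 26.8% of all exons. Under the stricter score none of 4 exons and 6 introns was called in DMSO (26.8% of exons and 11.1% of introns), and in 4OHT no exon (30% of exons) and 2 introns, both of CLK3 (14.9% of introns), were called.

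The ends of the DYRK1B introns 4 and 8, and the 36-nt exon that begins where intron 8 ends, are shown because they had the largest increases among the introns called in DMSO siSF3B1; capitals mark the first and last 2 intron bases.
DYRK1B intron 4, 5′ end (chr19:40320995-40321023): tttggccagGTgtgggacaccccccacca
DYRK1B intron 4, 3′ end (chr19:40320659-40320687): gacatgccctgccccaacAGgtggtgaaa
DYRK1B intron 8, 5′ end (chr19:40317905-40317933): ctcaggaagGTgcggcccctgccccatgc
DYRK1B intron 8, 3′ end (chr19:40317619-40317647): tcccaccccctccctgccAGgattaccag
DYRK1B 36-nt exon (chr19:40317592-40317627): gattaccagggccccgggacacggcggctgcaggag

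DYRK1B intron 4 (347 nt, GC 53.0%) was kept at 0%, 4.82% and 11.5% in DMSO siNT and at 25%, 31.6% and 71.4% in DMSO siSF3B1. All knockdown libraries were above all controls (30.3 points ± 5.6 SE, adjusted p = 8.81e-08). In 4OHT siSF3B1 it was at 14.3%, 31.7% and 45.5%, above the 4OHT siNT maximum of 9.43% (27.8 points, adjusted p = 1.43e-08). In 4OHT siRBM39 it rose by 6.26 points (adjusted p = 0.0131), a call lost in 8 of 14 alternatives. Balance was flagged in 10 libraries.

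DYRK1B intron 8 (297 nt, GC 62.96%) went from a mean of 5.05% to 29.7% in DMSO siSF3B1 (adjusted p = 1.46e-05) and from 3.35% to 22.7% in 4OHT (adjusted p = 6.01e-05). Intron 2 went from 1.11% to 14.9% (adjusted p = 6.4e-06) and from 0.463% to 24.6% (adjusted p = 1.19e-09), and intron 1 from 7.5% to 18.9% and from 8.66% to 28.5%, calls lost in 3 and 1 of 14 alternatives. The 36-nt exon, all coding, was at 10.5%, 13.7% and 25.9% in DMSO siNT and at 29.2%, 38.7% and 62.4% in DMSO siSF3B1. These ranges were apart, and the exon rose by 25.4 points (adjusted p = 1.19e-06). In 4OHT it was at 12.3%, 18.9% and 43.9% in siNT and at 39.9%, 47.4% and 61.7% in siSF3B1 (27.4 points, adjusted p = 1.38e-06), with a slight overlap. It was at means of 15.4% and 15.3% after siRBM39.

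CLK1 had rising introns away from exon 4. Its intron 8, of only 79 nt, was at 0%, 5.09% and 14.3% in DMSO siNT and at 11.5%, 28.8% and 40% in DMSO siSF3B1 (22 points, adjusted p = 9.62e-05). In 4OHT the mean went from 15.3% to 36.4% (21.05 points, adjusted p = 0.00365), and both pairs of groups overlapped. Intron 11 rose by 8.70 points in DMSO (adjusted p = 0.00123) and by 14.1 points in 4OHT (adjusted p = 9.36e-06). Intron 5 rose in 4OHT by 12.5 points (adjusted p = 1.64e-05). Introns 10 and 2 were called less stably. Intron 10 rose by 5.08 points in DMSO and by 7.70 points in 4OHT (lost in 5 and 4 of 15 alternatives), and intron 2 by 6.49 points in 4OHT (lost in 5 of 15, at 4.26 points without replicate 2 of each siRNA). With the second siRNA alone intron 11 in DMSO rose by 5.79 points (adjusted p = 0.068).

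In CLK3, intron 6 was at 0% to 2.70% in DMSO siNT and at 2.33% to 8.33% in DMSO siSF3B1, and in 4OHT it rose from a mean of 0.171% to 6.79% (adjusted p = 5.5e-12). Intron 7 rose by 6.75 points in DMSO (adjusted p = 8.79e-05), where the second siRNA alone gave 3.46 points (adjusted p = 0.052), and by 6.01 points in 4OHT (adjusted p = 0.000215). Intron 2 rose by 6.73 points in 4OHT (adjusted p = 0.0128), lost in 5 of 15 alternatives, with 0.93 points for the second siRNA alone (adjusted p = 0.628).

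**Figure D5:**
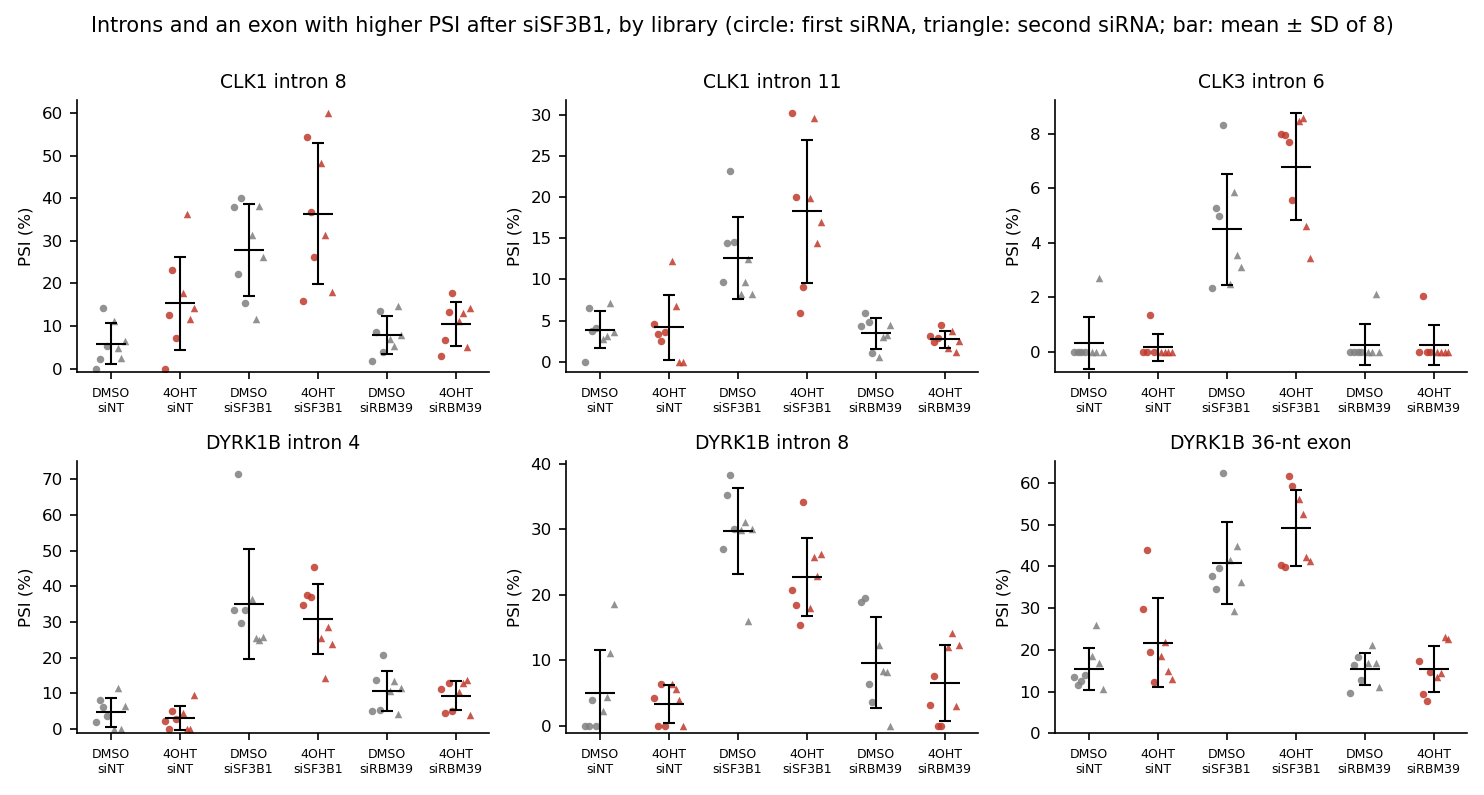
PSI (vertical axis, percent) in each of the 48 libraries for 5 introns and the 36-nt exon of DYRK1B, by group, with the mean and SD of 8 (circles first siRNA, triangles second siRNA). The siSF3B1 groups lie highest in each panel, with means of 35.1% and 30.9% for DYRK1B intron 4 against 4.72% and 3.03% in siNT.

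In the SRPK genes, exons and no intron were called after siSF3B1 against siNT, and the 2 kinds were not tested against each other. Against siRBM39 in 4OHT, SRPK1 intron 6 was called lower in siSF3B1 (−13.5 points, lost in 7 of 14 alternatives). SRPK2 exon 2 (55 nt, coding) was at 100% in every library of the siNT and siRBM39 groups, and at means of 83.0% in DMSO siSF3B1 (−17.0 points, adjusted p = 0.000327) and 71.0% in 4OHT siSF3B1 (−29.0 points, adjusted p = 1.88e-07). The siSF3B1 libraries ranged from 47.4% to 100% and from 33.3% to 100%, so they met the controls at the top. SRPK1 exon 10 (214 nt, coding) fell in DMSO (−9.65 points, adjusted p = 0.0107) and in 4OHT (−6.05 points, adjusted p = 0.0103), calls lost in 6 and 4 of 15 alternatives. A 64-nt exon of SRPK2 was at 26.1%, 36.6% and 43.6% in DMSO siNT and at 3.02%, 11.1% and 34.3% in 4OHT siNT, with an overlap (−19.0 points, adjusted p = 0.045, lost in 12 of 16). After siSF3B1 in 4OHT it was at 19.4%, 40.3% and 65.0%, higher than in 4OHT siNT by 24.95 points (adjusted p = 0.000165, lost in none of 16).

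Few other kinase events moved. Between 4OHT and DMSO in siNT cells, the SRPK2 exon was the only exon called (0.608% of all exons) and SRPK1 intron 6 the only intron (0.561% of all introns), rising from 3.12% to 10.2% by mean (7.09 points, adjusted p = 0.0324, lost in 8 of 14 alternatives, 15 libraries out of balance). In DMSO siRBM39 limma called none of 30 exons and none of 34 introns, with 1 exon and 6 introns at an unadjusted p under 0.05, against 5.7% of all exons and 6.72% of all introns called. Without replicate 4 of siRBM39-08 in 4OHT, SRPK1 intron 6 was called there (5.74 points, adjusted p = 0.0443). In 4OHT siRBM39 it called 0 exons, with 4 at an unadjusted p under 0.05 (6.82% of all exons called), and 2 introns, the CLK1 and DYRK1B introns given above (7.27% of all introns, 0.412% lower). No kinase event responded differently to siSF3B1 in 4OHT and in DMSO by limma, with 3 exons and 1 intron at an unadjusted p under 0.05 (0.277% of all exons and 0.118% of all introns called), and none to siRBM39, with 0 exons and 1 intron (0.00711% and 0.0103% called). The exact permutation test, run on 10 of the CLK events, gave an unadjusted p under 0.05 for 3 in DMSO siRBM39, 2 in 4OHT siRBM39 and 5 between the siNT groups, and the differences between treatments were tested with limma alone.

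The genes around these kinases in the pathway were counted from lists. Of 12 related kinases, 8 were found by name among the genes tested. Whether the rest fell under the count filter or carry another name in the deposited data was not checked. Of the 8, 4 were called in DMSO siSF3B1 (2 higher, 2 lower), 8 in 4OHT siSF3B1 (7 higher, 1 lower), 1 in DMSO siRBM39, 4 in 4OHT siRBM39 and 6 in 4OHT siNT (3 each way). The shares of all genes called, in the same order, were 72.7%, 77%, 46.1%, 56.4% and 78.1%. DYRK3, a kinase that dissolves condensates such as speckles and stress granules, rose by 0.82 and 0.93 on the log2 scale after siSF3B1 (adjusted p = 1.92e-09 and 3.88e-11), by 0.34 and 0.53 after siRBM39 (adjusted p = 0.00715 and 2.24e-05), and by 1.21 with 4OHT in siNT (adjusted p = 1.71e-14). PRPF4B, a kinase of the spliceosome, fell by 0.41 and by 0.36 after siSF3B1 (adjusted p = 5e-05 and 0.000269). With 4OHT, DYRK4 fell by 1.47 (adjusted p = 7.92e-19) and HIPK2, a kinase of the DNA damage response, fell by 1.01 (adjusted p = 2.69e-16).

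Among the substrates, 6 of 14 SR proteins were found by name among the genes tested, and the absence of the rest was not looked into either. Of these 6, 5 were called in DMSO siSF3B1 (4 higher, 1 lower), 6 in 4OHT siSF3B1 (4 higher, 2 lower), 4 in each siRBM39 comparison and 3, all higher, with 4OHT in siNT. Of all genes 72.7% and 77% were called after siSF3B1, 46.1% and 56.4% after siRBM39 and 78.1% with 4OHT in siNT. SRSF1, the founding SR protein, rose by 0.55 and 0.61 after siSF3B1 (adjusted p = 2.87e-19 and 3.73e-21) and by 0.40 and 0.30 after siRBM39 (adjusted p = 8.34e-14 and 2.78e-10). SRSF5 fell after siSF3B1 by 0.43 and by 0.48 (adjusted p = 4.56e-12 and 1.14e-13). Of 9 phosphatases, regulators and import factors, all tested, 7 were called in DMSO siSF3B1 (6 higher, 1 lower), 9 in 4OHT siSF3B1 (7 higher, 2 lower), 6 in DMSO siRBM39 (5 higher, 1 lower), 3 in 4OHT siRBM39 (2 higher, 1 lower) and 6 with 4OHT in siNT (5 higher, 1 lower), to be read against the same shares. PPP2CB, a catalytic subunit of phosphatase 2A, rose by 0.72 (adjusted p = 1.71e-17) and TNPO3, the importin that carries SR proteins, fell by 0.13 (adjusted p = 0.024) in DMSO siSF3B1.

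The genes whose pattern lay nearest to a member were found by the root mean square difference of log2 fold changes, each of the other 5 groups against DMSO siNT, among 9991 genes. Nearest to CLK1 were C22orf46 (0.115) and ZNF783 (0.132), and nearest to C1orf63, whose pattern had fewer close neighbours, were GALK2 (0.268) and C3orf31 (0.298). For SRPK1 these were HPCAL1 and BLZF1, for CLK4 MRPS6 and LSM7, and for DYRK1A C10orf28 and ZNF304. All 5 fold changes share the DMSO siNT libraries, so this is a description of likeness alone.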

How the data were processed

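RNA-seq of 48 libraries was analysed. The authors aligned single-end reads with vast-tools v2 and deposited raw gene counts, cRPKM (RPKM corrected by the authors for mappable positions) and PSI in percent with a quality score and read numbers for each exon and intron. Their normalised CPM table was not used. The build named is hg19, but the event coordinates in the deposited files are GRCh38, so introns and exons were placed on GRCh37 by their lengths with 1 offset per gene. Counts (9991 genes with at least 10000 counts in all) were tested with edgeR 4.0.16 (quasi-likelihood, TMM, 6 groups, R 4.3.3), and PSI with limma 3.58.1 on the logit of 0.01 + 0.98 PSI, with Benjamini-Hochberg adjustment at 0.05. An exon or intron needed a PSI range of at least 5 points and either a coverage score of VLOW or better in every library and, for an intron, a balance p of at least 0.05, or at least 80 reads in each group (added after seeing the data). Group was taken from the titles, since 4 libraries titled siNT2 carry a treatment value naming siNT1. Named genes were the 9 members, the 2 genes nearest to a member, and list genes of which 5 or fewer were called in a direction or with the 2 largest changes; the text gives some of these. Scripts were tested on simulated data. For PSI this covered the score in each library, and the filter of reads in each group was not simulated separately. A first PSI simulation with few reads in every event found none of the changed events. Another with the measured spread of each event was then used. The members and lists were chosen with earlier results of these data known. Alternatives left out libraries or siRNAs and changed filters, normalisation and tests (DESeq2 1.42.0).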

Additional observations from a re-analysis of the deposited data

Results flagged for a closer look

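One library, replicate 4 of siRBM39-08 in 4OHT, lay far from the other 7 of its group in 5 of the 9 genes. It was lowest for CLK2 at 9.55 cRPKM (others 10.78 to 11.8), for DYRK1A at 3.28 (others 11.64 to 13.78) and for C1orf63 at 43.46 (others 53.44 to 60.02), and highest for CLK3 at 20.51 (others 16.52 to 18.21) and for DYRK1B at 24.21 (others 12.88 to 16.3). These 5 were all that Dixon's test at 95% marked among 54 sets of 8 libraries, where chance marks about 1 in 20. The same library had the highest summed epithelial markers (14.72 cRPKM, others at most 5.17), and the part of other cells in these values was not tested.

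The effect of siSF3B1 differed between 4OHT and DMSO for 5 kinases by the interaction term of edgeR. On the log2 scale, 4OHT minus DMSO, the difference was 0.50 for CLK1 (from −0.29 to 0.22), 0.33 for CLK2 (from 0.05 to 0.38), 0.31 for CLK4 (from −0.71 to −0.40), −0.24 for CLK3 (from 0.24 to 0.00) and −0.16 for SRPK1 (from −0.11 to −0.27). CLK1 thus had a called effect of opposite sign under the 2 treatments. These 2 effects were lost in 2 (DMSO) and 4 (4OHT) of 17 alternatives, and its groups overlapped under both treatments. The effect of siRBM39 differed for SRPK1 by −0.16 (from −0.23 to −0.38) and for CLK3 by −0.18. Of these calls, CLK4 and SRPK1 after siSF3B1 were lost in 5 and 3 of 17 alternatives, and SRPK1 and CLK3 after siRBM39 in 4 and 7.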

How the results depend on the processing

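Of the log2 fold changes recomputed under an alternative, 1127 kept direction and side of the threshold, 56 lost the call, 39 gained it and 2 reversed; of the PSI differences 775 kept both, 168 lost the call and 38 gained it. The reversals were SRPK2 after siSF3B1 in DMSO with the first siRNA alone (−0.21 on the log2 scale) and DYRK1B, siSF3B1 against siRBM39 in DMSO, with the second siRNA alone (0.13). The number of kinases called for the siSF3B1 interaction was 5, and 8 with the first and 3 with the second siRNA alone. For the siRBM39 interaction it was 2, then 5 with the first siRNA alone, 1 with DESeq2 size factors and 1 with only the groups compared, 0 with siNT1 alone and 0 with siNT2 alone, and 0 to 4 on leaving out a replicate number. For siSF3B1 against siRBM39 in DMSO it was 7, 4 with the second siRNA alone and 4 to 7 on leaving out a replicate number.

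The number of exons and introns called under the score in each library was 0 in DMSO siSF3B1, where it was 2 with the first siRNA alone, 1 with siNT2 alone, 1 with only the balance filter dropped, 13 with reads in each group and no balance filter, and 0 to 1 on leaving out a replicate number. In 4OHT siSF3B1 it was 2, and 0 with a score of at least LOW, 0 at 10 points, 4 with only the balance filter dropped, 19 with reads in each group and no balance filter, 1 with the second siRNA alone, 1 with siNT2 alone and 1 to 2 on leaving out a replicate number. With both filters so changed it was 2 in 4OHT siRBM39 and 2 for 4OHT against DMSO in siNT, from 0 each. For siSF3B1 against siRBM39 in DMSO it was 0, and 3 with the first siRNA alone, 1 with only the balance filter dropped, 11 with both changed and 0 to 1 on leaving out a replicate number. In 4OHT it was 2, and 0 with LOW, 0 at 10 points, 4 with only the balance filter dropped, 17 with both changed and 1 with the second siRNA alone. The fewer events under LOW follow from fewer events tested, and the other causes were not tested. The second siRNA alone lost the most PSI calls (34).

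Libraries with the same replicate number did not deviate together on average (mean r 0.0121 over 264 pairs, and −0.0021 over 792 pairs of different number). Deviations were taken from the mean of each siRNA and treatment. This ties the second mean to the first, so it is no separate baseline. Single pairs ranged from −0.898 to 0.790 for the same number and from −0.894 to 0.930 for different numbers. Some libraries thus deviated together whatever their number, and the source of this was not tested. The replicate block left each count of kinases, and of events under the score in each library, as it was, for example 6 kinases in DMSO siSF3B1 and 5 in 4OHT siSF3B1. With reads in each group it lost 1 PSI call of the 2 in 4OHT siRBM39, CLK1 intron 4.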
